A study of Mus musculus with 60 samples.

Results

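The non-clustered protocadherins are cell-surface adhesion proteins of the cadherin superfamily, each encoded by a gene of its own. Polycomb-marked chromatin at 8 of these genes, Pcdh1, Pcdh7, Pcdh8, Pcdh9, Pcdh10, Pcdh17, Pcdh18 and Pcdh20, was examined out of 21938 protein-coding mouse genes. The 8 were chosen by name as members of one gene family, with H3K27me3 values of these same libraries already known. Their H3K27me3 values are therefore given as a description without a test. Each gene was read through a window holding the gene body and 20 kb on each side (mm10), and its start site through the 1 kb on either side of the annotated 5′ end.

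The cells were C3H 10T1/2, a mouse mesenchymal progenitor line, in which a lentivirus delivered human histone H3.1 with HA and FLAG tags at its C terminus under the EF1 promoter, followed by puromycin selection. The 5 groups differed only in this transgene, which was wild type (H3WT) or had cysteine in place of arginine at residue 2 (H3R2C), 8 (H3R8C), 17 (H3R17C) or 26 (H3R26C). All 5 groups still had their endogenous H3, so the mutant histone was one part of the H3 pool. CUT&RUN, in which nuclease is tethered to an antibody on chromatin and the freed fragments are sequenced, was done with antibodies to H3K27me3 and to the HA tag of the transgenic H3.

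Of 30 deposited peak lists, 29 were used. In each group the lists of labelled replicates 1 and 2 held identical values and were counted once, so most groups had 2 independent libraries, called here the first (replicates 1 and 2) and the second (replicate 3). The H3K27me3 lists of H3R17C were the exception, since the list of replicate 1 was named for another histone mark and was left out, and those of replicates 2 and 3 were identical, which left 1 library. The 9 H3K27me3 lists held 20077 to 24598 peaks. The lists give peak signal and no read counts. The study states a read total for each labelled replicate, and these differ between replicates whose lists are identical, so they were not assigned to the lists or used here. The spread between the 2 libraries of a group is the measure of error.

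Protocadherins mediate weak, largely homophilic contacts between cells and pass signals to the cytoskeleton. The δ-protocadherins are best known from the nervous system, where they sort neurons, guide axons and shape synapses, and several are silenced in tumours by promoter methylation. The δ1 members Pcdh1, Pcdh7 and Pcdh9 carry an additional extracellular cadherin repeat compared with the δ2 members Pcdh8, Pcdh10, Pcdh17 and Pcdh18, while Pcdh20 is usually set apart from both. H3K27me3 is the repressive mark placed by Polycomb repressive complex 2, which in mammals gathers at CpG-rich start sites of developmental genes that are not in use.

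Because Polycomb marking favours CpG-rich promoters, the 250 bases before the start are shown for 5 members that span the range of H3K27me3 seen here, from broad marking through marking in 1 mutant to no marking. CpG dinucleotides are in capitals. The sequences are those of RefSeq (GRCm38.p6), 5′ to 3′ along the gene, for Pcdh8 (chr14:79771313-79771562, minus strand), Pcdh10 (chr3:45378148-45378397, plus strand), Pcdh17 (chr14:84443313-84443562, plus strand), Pcdh20 (chr14:88471397-88471646, minus strand) and Pcdh18 (chr3:49757317-49757566, minus strand).
Pcdh8: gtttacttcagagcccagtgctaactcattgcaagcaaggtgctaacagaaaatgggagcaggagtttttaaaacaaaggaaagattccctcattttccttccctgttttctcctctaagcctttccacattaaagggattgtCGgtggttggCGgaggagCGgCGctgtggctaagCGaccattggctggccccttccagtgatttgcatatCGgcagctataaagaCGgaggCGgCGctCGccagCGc
Pcdh10: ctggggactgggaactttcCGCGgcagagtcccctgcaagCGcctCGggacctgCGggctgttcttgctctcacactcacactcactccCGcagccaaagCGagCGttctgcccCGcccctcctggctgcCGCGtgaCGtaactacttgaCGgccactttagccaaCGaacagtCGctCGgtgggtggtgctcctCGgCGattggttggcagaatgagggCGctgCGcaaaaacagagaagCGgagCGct
Pcdh17: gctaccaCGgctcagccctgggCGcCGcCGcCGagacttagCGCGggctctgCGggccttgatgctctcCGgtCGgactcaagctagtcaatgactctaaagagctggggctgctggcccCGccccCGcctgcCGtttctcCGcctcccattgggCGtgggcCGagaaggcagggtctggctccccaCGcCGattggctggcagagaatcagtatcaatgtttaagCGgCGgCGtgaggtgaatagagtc
Pcdh20: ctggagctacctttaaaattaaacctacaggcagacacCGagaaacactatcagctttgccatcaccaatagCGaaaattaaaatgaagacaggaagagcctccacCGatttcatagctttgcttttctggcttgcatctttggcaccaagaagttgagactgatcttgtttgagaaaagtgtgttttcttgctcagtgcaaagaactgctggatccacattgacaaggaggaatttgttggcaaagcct
Pcdh18: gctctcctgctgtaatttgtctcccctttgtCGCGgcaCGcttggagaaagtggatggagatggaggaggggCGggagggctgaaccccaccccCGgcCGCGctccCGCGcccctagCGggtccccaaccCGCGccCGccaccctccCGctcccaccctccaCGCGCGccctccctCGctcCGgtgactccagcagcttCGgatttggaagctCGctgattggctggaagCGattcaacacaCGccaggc

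A RefSeq promoter was found for 7 of the 8 members. The ratio of observed to expected CpG, which corrects the CpG count for base composition, had a median of 0.373 over all 32851 promoters of the same length. It was highest at Pcdh10 (0.882, 22 CpG), Pcdh18 (0.815, 23 CpG) and Pcdh17 (0.800, 21 CpG). Pcdh9 (0.713, 18 CpG) and Pcdh8 (0.673, 11 CpG, all in the part nearest the start) also lay above that median. Pcdh7 had 0.419 with 7 CpG, and Pcdh20 was the only one of the 7 below the median, at 0.267 with 3 CpG. The CpG-dense Pcdh18 had no H3K27me3 peak listed in its window in any library, and the CpG-poor Pcdh20 was marked in 6 of 9. On the other side, the CpG-dense Pcdh10 was marked in 7 of 9 and Pcdh17 in both H3R8C libraries, while Pcdh7 had no start-site peak in any. Whether CpG content and marking went together was not tested.

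In H3WT cells 2 of the 8 members, Pcdh8 and Pcdh10, had an H3K27me3 peak over the start site in both libraries, and in H3R2C cells none did. The same count was 5 in H3R8C (Pcdh1, Pcdh8, Pcdh10, Pcdh17 and Pcdh20), 3 in the single H3R17C library (Pcdh8, Pcdh10 and Pcdh20) and 4 in H3R26C (Pcdh1, Pcdh8, Pcdh10 and Pcdh20). Over all protein-coding genes the share with a start-site peak in every library of the group was 8.85% in H3WT, 6.97% in H3R2C, 9.67% in H3R8C, 8.83% in H3R17C and 8.45% in H3R26C.

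A start-site peak was counted as lost when it was present in both H3WT libraries and in neither library of the mutant, and as gained in the opposite case. In H3R2C, 2 of the 2 marked members lost their start-site peak, against 26.1% of the marked start sites of all genes, and none of 4 unmarked members gained one (1.09% of all unmarked start sites). In H3R8C none of the 2 lost the peak (background 4.22%), and 1 of 4, Pcdh17, gained one (background 0.823%). In H3R26C none of the 2 lost it (background 9.37%) and none of 4 gained one (background 0.921%). With only 2 members marked in H3WT, the H3R2C count was not compared with its background by a test. Pcdh1 and Pcdh20 entered neither count, since of the H3WT libraries only the first had their peak. Without the first H3WT library, the gained count rose to 3 in H3R8C (Pcdh1, Pcdh17 and Pcdh20) and to 2 in H3R26C (Pcdh1 and Pcdh20).

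The percent of the window covered by H3K27me3 peaks gave a wider view, as it does not depend on the start site. It was not scaled between libraries, and the lists differed in breadth. The first and second lists covered 104 and 98.6 Mb of the genome in H3WT and 130 and 77.0 Mb in H3R2C. They covered 96.9 and 108.5 Mb in H3R8C and 120 and 64.2 Mb in H3R26C, and the H3R17C list 82.7 Mb. The part of list breadth in the percent covered was not tested. In H3R2C, both libraries lay below both H3WT libraries for 2 of the 6 members with any peak in these 4 libraries (Pcdh8 and Pcdh10), with 20.2% of all covered windows doing so. They lay above for 1 of 6 (Pcdh1), against 27.9% of all windows. In H3R8C both libraries lay above H3WT for 6 of 7 members, all but Pcdh7, where the background was 22.8%, and below for none of 7 (background 17.1%). With only the upper 50% of peaks of each list, H3R8C lay above for 4 members (Pcdh9, Pcdh10, Pcdh17 and Pcdh20). Over the gene body alone it did so for 4 as well (Pcdh8, Pcdh10, Pcdh17 and Pcdh20). In H3R26C both libraries lay above H3WT for 2 of 5, Pcdh1 and Pcdh20 (background 13.9%), and below for none of 5 (background 26%). Set directly against H3R26C, H3R2C was lower at 4 of 6 members, Pcdh8, Pcdh9, Pcdh10 and Pcdh20 (background 16.5%), and higher at 1, Pcdh1 (background 31.8%). Without the second H3WT library, 4 members in place of 2 were lower in H3R2C, with Pcdh9 and Pcdh20 added, and 1 (Pcdh9) was lower in H3R26C. Without the second H3R2C library, 2 were higher in H3R2C (Pcdh1 and Pcdh7). Without the first H3WT library or the first H3R26C library, 2 members (Pcdh8 and Pcdh10) were lower in H3R26C. All comparisons with H3WT share the same 2 H3WT libraries and are not independent of each other.

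**Figure D1:**
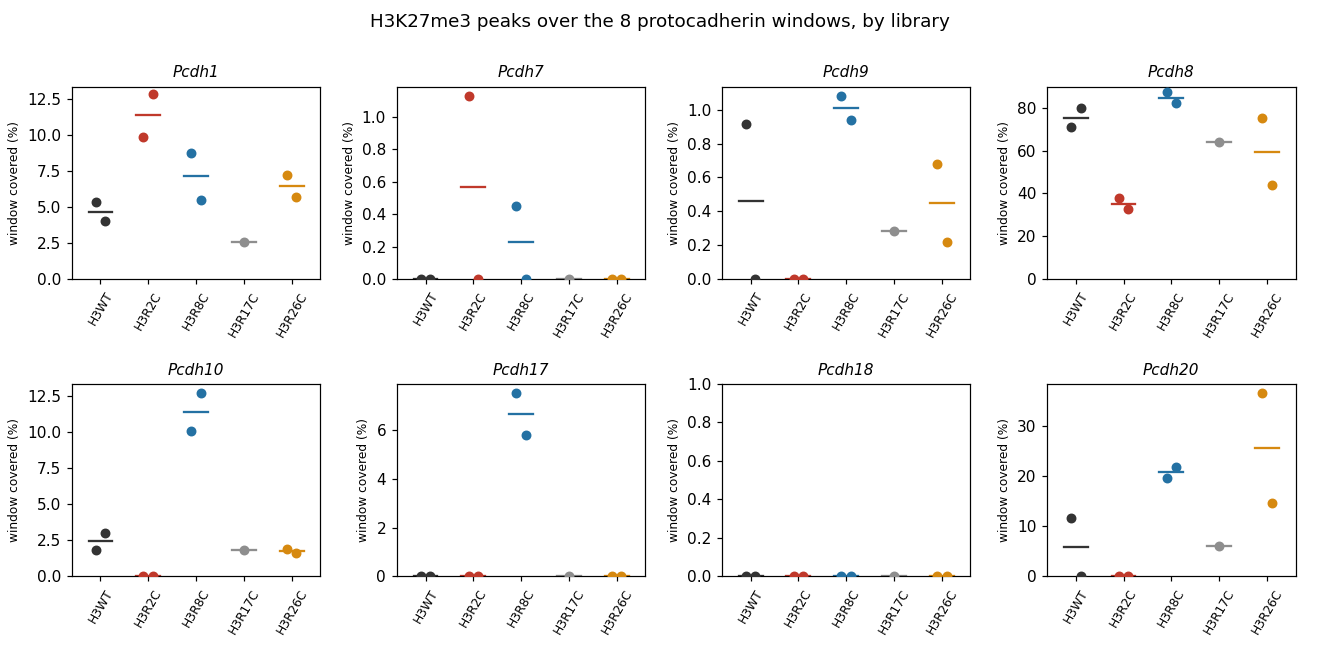
Percent of each gene window covered by H3K27me3 peaks (y axis, a separate scale for each gene) in the 5 groups (x axis). Each point is 1 independent library and each line the mean of its group, with H3R17C from 1 library. Pcdh8 and Pcdh10 have their lowest values in H3R2C, and Pcdh20 is at 0 in H3R2C and in the second H3WT library. Pcdh17 is above 0 only in H3R8C, and Pcdh18 is at 0 throughout.

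Pcdh8, also known as arcadlin or paraxial protocadherin, is an activity-regulated adhesion protein of synapses and acts in cell movements of the early embryo. It was the most heavily marked member. The gene itself spans only 4.54 kb (chr14:79766775-79771312, minus strand). H3K27me3 peaks covered 71.0% and 79.8% of its window in the 2 H3WT libraries and 37.7% and 32.7% in H3R2C. They covered 87.3% and 82.2% in H3R8C, 63.9% in H3R17C, and 75.4% and 43.8% in H3R26C. The H3R2C libraries were the lowest of the 9, with a mean of 35.2% ± 3.57 (SD, n = 2) against 75.4% ± 6.27 (SD, n = 2) in H3WT. The second H3R26C library lay between these groups and the first within the H3WT range.

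The decrease at Pcdh8 was not even along the locus. The 5 kb on each side of the start were covered to 74.5% and 75.0% in H3WT and to 68.5% to 84.0% in the H3R8C, H3R17C and H3R26C libraries, but to 0% in both H3R2C libraries. Upstream, between 5 and 25 kb from the start, coverage was 77.7% and 74.9% in H3WT against 32.0% and 16.5% in H3R2C. Downstream, between 5 and 25 kb, which is beyond the 3′ end of the gene, coverage was 59.8% and 74.3% in H3WT and 60.8% and 65.2% in H3R2C. The H3R2C values were thus below H3WT over the start and upstream, and within the H3WT range over the downstream segment as a whole. Reaching into that segment, a peak that began 2.66 to 4.01 kb downstream of the start in the other 7 libraries (5.8 kb and 5.2 kb long in H3WT) was missing from both H3R2C libraries. The farther peak, which began 11.3 kb and 9.76 kb downstream in H3R2C, ended at 23.4 kb and 22.8 kb there and at 18.5 kb and 20.7 kb in H3WT. No other protein-coding gene lies in the window.

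The start-site peak of Pcdh8 measured 15.9 kb and 8.35 kb in H3WT. Its scaled signal, which is the total signal of the peak divided by the median of 5401 regions marked in all 9 libraries, was 3.33 and 2.15 in H3WT. It was 2.97 and 3.07 in H3R8C, 1.92 in H3R17C, and 1.89 and 1.92 in H3R26C. All 7 values were far above the weakest peak of their list, which ranged from 0.118 to 0.188 over the 9 lists. Over the whole window the scaled signal was 5.47 and 5.74 in H3WT, 1.52 and 2.13 in H3R2C, 5.95 and 5.69 in H3R8C, 4.16 in H3R17C, and 4.02 and 4.53 in H3R26C. By this measure H3R26C also lay below both H3WT libraries, whereas by percent covered it did not, and H3R8C, which was higher by percent covered, overlapped H3WT. The higher H3R8C coverage was also lost with the upper 50% of peaks and with a common scaled floor.

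**Figure D2:**
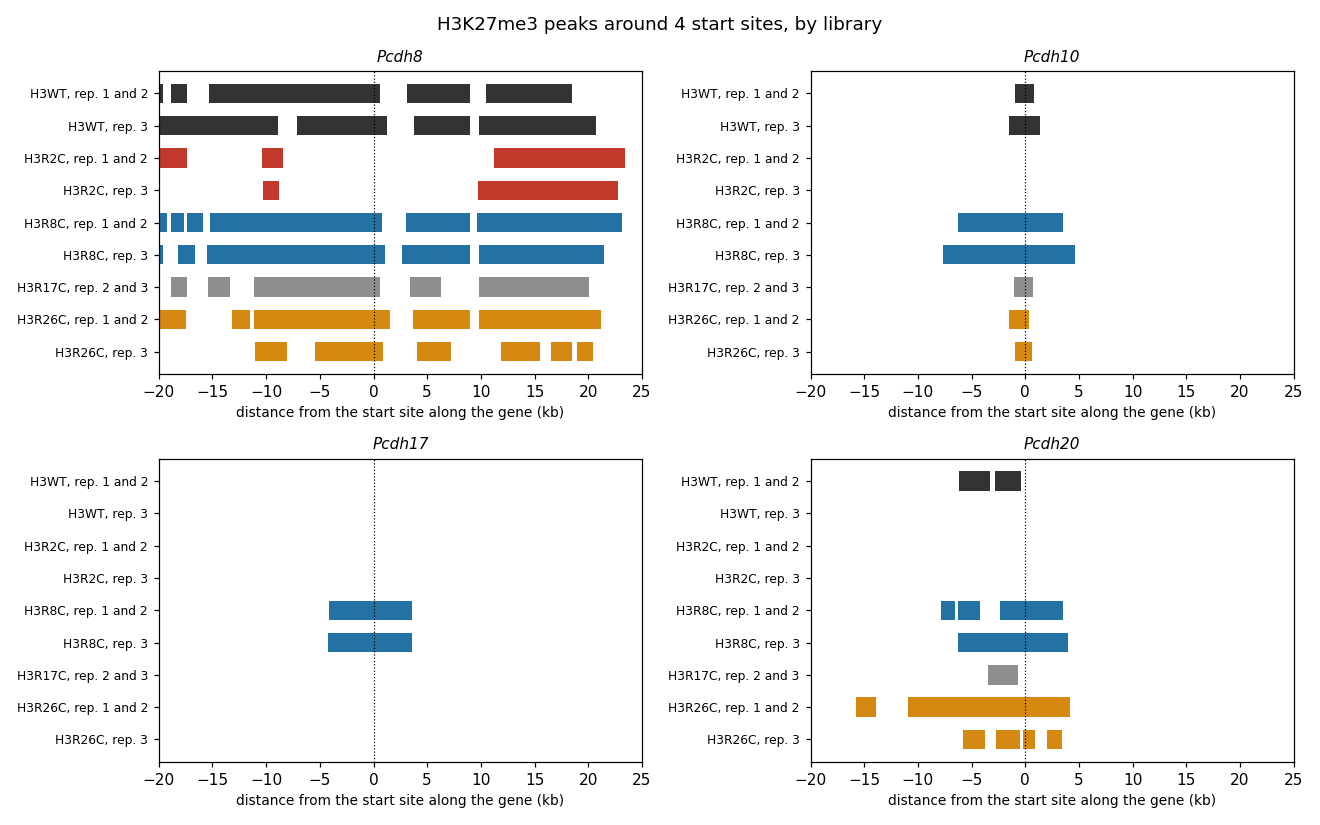
H3K27me3 peaks (bars) around the start sites of Pcdh8, Pcdh10, Pcdh17 and Pcdh20, with distance along the gene in kb on the x axis (negative is upstream, the dotted line is the start) and 1 row for each independent library, labelled by group and replicate. The Pcdh8 start is bare in both H3R2C rows out to the farther downstream block, which remains, and the Pcdh10 and Pcdh17 peaks are broadest in H3R8C.

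Pcdh10, or OL-protocadherin, promotes cell motility and axon growth through the WAVE actin-regulating complex. It lies on the plus strand of chromosome 3 (chr3:45378398-45435623). Its window held a single peak, over the start site, in 7 of 9 libraries. This peak measured 1.80 kb and 2.90 kb in H3WT, 9.80 kb and 12.3 kb in H3R8C, 1.80 kb in H3R17C, and 1.85 kb and 1.6 kb in H3R26C, and neither H3R2C library had one. Coverage of the window was 2.42% ± 0.800 (SD, n = 2) in H3WT, 0% in both H3R2C libraries and 11.4% ± 1.85 (SD, n = 2) in H3R8C. The H3R8C peak reached 6.30 kb and 7.70 kb upstream of the start, compared with 0.997 kb and 1.5 kb in H3WT.

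The H3WT peak at Pcdh10 was close to the limit of detection. Its scaled signal was 0.145 in the first H3WT library, whose weakest peak had 0.140, and 0.299 in the second, whose weakest peak had 0.142. The weakest peaks of the 2 H3R2C lists had 0.148 and 0.171, so a peak as weak as that of the first H3WT library would not have been listed in either. When peaks under a common level of 0.188 were dropped from every list, Pcdh10 was no longer called in the first H3WT library and the loss in H3R2C was left for Pcdh8 alone. The H3R8C peak, at 1.36 and 1.40, was far above this level in both libraries. H3R17C (0.180) and the first H3R26C library (0.155) also sat near the level of their lists.

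**Figure D3:**
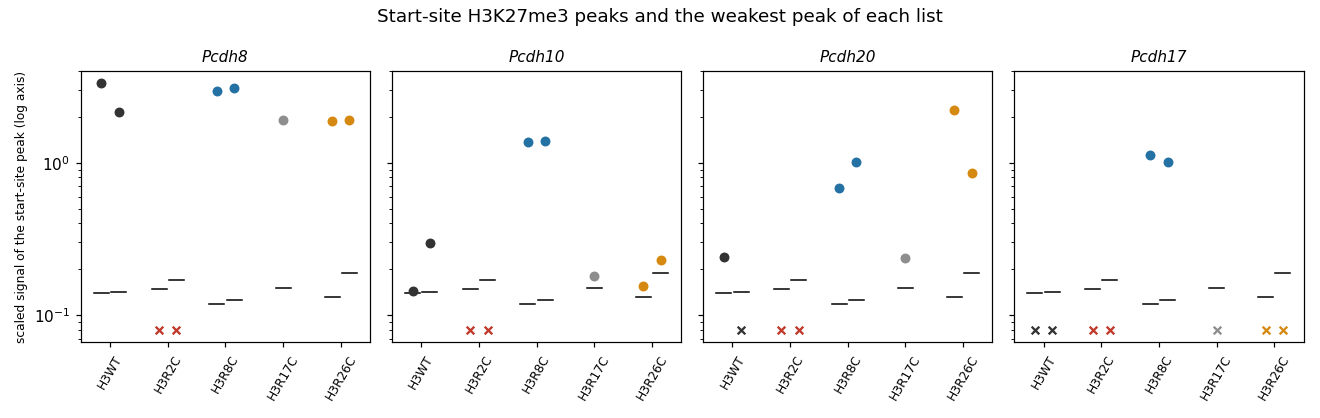
Scaled signal of the H3K27me3 peak over the start site (y axis, log scale, no unit) for 4 members in the 5 groups (x axis). Points are independent libraries with a start-site peak, crosses at the bottom are libraries without one, and short black lines mark the weakest peak of each list. Pcdh8 peaks stand far above the lines, and the H3WT peak of Pcdh10 at 0.145 stands beside its line at 0.140.

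Pcdh17, a presynaptic adhesion protein that organises vesicles and, like Pcdh10, binds the WAVE complex, was marked in H3R8C alone. Its start-site peak measured 7.75 kb and 7.85 kb in the 2 H3R8C libraries, running from 4.16 kb and 4.26 kb upstream to 3.59 kb downstream, with scaled signals of 1.12 and 1.01. No peak lay anywhere in its 135 kb window in the other 7 libraries. The percent covered was 0 in those 7 and 7.53% and 5.80% in H3R8C. In the first H3R8C library it included a peak of 2.45 kb that began 73.1 kb downstream of the start. The second H3R8C library did not list that peak. As with Pcdh10, the gene lies on the plus strand (chr14:84443563-84539002), but its H3R8C peak was close to centred on the start, where that of Pcdh10 reached farther upstream than downstream (3.5 kb and 4.65 kb).

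Pcdh18, which binds the adaptor Dab1, had no H3K27me3 peak in its window (gene at chr3:49743296-49757325, minus strand) in any of the 9 libraries. Its promoter, shown above, has the largest CpG count of the 5 printed. A gene without a listed peak is one below the level of each list, which does not show that the mark was absent.

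Pcdh20 (chr14:88464743-88471396, minus strand) is a short gene whose product belongs to the same adhesion family and is less well characterised. Its window was covered to 11.7% in the first H3WT library and to 0% in the second, and to 0% in both H3R2C libraries. Coverage was 19.6% and 21.9% in H3R8C, 6.0% in H3R17C, and 36.5% and 14.6% in H3R26C. The H3R8C and H3R26C values all lay above both H3WT libraries, but the H3R2C values equalled the lower of the H3WT pair, so the order of H3R2C and H3WT could not be told. The scaled signal of the peaks over the start was 0.242 in the first H3WT library, 0.678 and 1.01 in H3R8C, 0.236 in H3R17C, and 2.22 and 0.853 in H3R26C. The peak of the first H3R26C library, at 15.1 kb, was the broadest at this gene.

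Among the δ1 members the mark was sparse. Pcdh1, which is expressed in airway epithelium and is a candidate gene for asthma, lies on the minus strand of chromosome 18 (chr18:38185914-38212053). Its window was covered to 5.37% and 4.01% in H3WT, 9.88% and 12.8% in H3R2C, 8.77% and 5.52% in H3R8C, 2.57% in H3R17C, and 7.26% and 5.67% in H3R26C. Here H3R2C was the highest group and lay above H3WT, the opposite of its place at Pcdh8 and Pcdh10. Part of this coverage was a peak beyond the 3′ end of the gene, which was listed in both H3R2C libraries and in no other. A further peak of 1.70 kb beyond the 3′ end was listed in the second H3R2C library alone.

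All 9 libraries had a peak upstream of Pcdh1, and in the first H3WT library and all 4 libraries of H3R8C and H3R26C a separate peak began just downstream of the start and gave a start-site call. In the first libraries of H3R8C and H3R26C the upstream peak gave the call as well, ending 0.048 kb and 0.898 kb before the start. In the first H3R2C library the call came from the upstream peak alone, which ended 0.348 kb before the start. In the second H3WT library the upstream peak of 2.65 kb ended 1.45 kb before the start, just outside the 1 kb limit, and there was no downstream peak. Over the whole window the mean coverage was 11.4% ± 2.10 in H3R2C against 4.69% ± 0.962 in H3WT (SD, n = 2 each). Over the gene body alone the direction turned, and the mean fell by 4.21 percentage points from H3WT to H3R2C. This fall rested on the 2.20 kb peak of the first H3WT library. The second H3WT library, like both H3R2C libraries, had no peak in the gene body.

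Pcdh9, the longest of these genes at 877 kb (chr14:93013410-93890679, minus strand) and one of the δ1 members enriched in brain, had no start-site peak in any library. A peak 7.87 to 14.9 kb upstream was listed in 6 of 9 libraries. It measured 7.0 kb and 6.65 kb in H3R8C and 1.45 kb in the first H3WT library. In H3R17C it measured 2.60 kb, and in H3R26C 6.25 kb and 2.00 kb. It was missing from the second H3WT library and both H3R2C libraries. The first H3WT library also listed 3 peaks deep inside the gene body. Coverage of this long window never exceeded 1.08%, and the higher H3R8C coverage (1.01% ± 0.0999 against 0.458% ± 0.648, SD, n = 2 each) lay upstream of the gene and not in its body. Besides the peak above, this coverage came from 1 or 2 smaller peaks of 1.75 to 2.7 kb farther upstream in each H3R8C library.

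Pcdh7, whose intracellular part binds protein phosphatase 1, spans 415 kb (chr5:57717967-58133230, plus strand) and was all but free of the mark. One peak of 5.15 kb lay beyond its 3′ end in the first H3R2C library, and one of 2.05 kb lay upstream of its start in the first H3R8C library. The other 7 libraries listed none, and neither peak was seen in the other library of its group.

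The members therefore fell into those with a start-site peak in at least 1 group (Pcdh1, Pcdh8, Pcdh10, Pcdh17 and Pcdh20) and those with none (Pcdh7, Pcdh9 and Pcdh18). Pcdh8, Pcdh17, Pcdh20 and Pcdh9 lie in this order on chromosome 14. Pcdh10 and Pcdh18 both lie on chromosome 3. Pcdh10 had no listed H3K27me3 peak in H3R2C, which also held for Pcdh9, Pcdh17 and Pcdh20 on chromosome 14. Pcdh18 had none in any library. The share of start-site peaks lost in H3R2C was 26.7% over the marked genes of chromosome 14 and 21.8% over those of chromosome 3, close to the 26.1% of the genome.

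Related adhesion genes were read in the same way. Of the 4 other non-clustered protocadherins (Pcdh11x, Pcdh12, Pcdh15 and Pcdh19), none was marked at its start in both H3WT libraries, and 1, Pcdh11x on the X chromosome, gained a start-site peak in H3R8C, where its window coverage was 1.48% ± 0.0375 against 0% in both H3WT libraries. None of 56 clustered protocadherins, the large tandem arrays that give neurons their individual identity, had a start-site peak in both libraries of any group or gained one. Among 18 classical cadherins, which form the strong adherens junctions, 2 were marked at their start in both H3WT libraries, and 1 of these, Cdh6, lost its peak in H3R2C, with coverage of 1.51% ± 1.22 in H3WT and 0% in both H3R2C libraries. No cadherin gained one. Of the 9 genes of the WAVE complex, the cytoplasmic partner of Pcdh10 and Pcdh17, 1 (Cyfip2) had a start-site peak in both libraries of H3R8C and of H3R26C. It was counted neither as lost nor as gained, because 1 H3WT library also had it. By percent covered, both H3R8C libraries lay above H3WT for 2 of 2 covered other non-clustered protocadherins, Pcdh11x and Pcdh19. They did so for 2 of 9 cadherins (Cdh5 and Cdh12) and for Cyfip2, and lay below for 1 cadherin, Cdh4. H3R2C was lower than H3R26C at 3 of 6 cadherins (Cdh4, Cdh5 and Cdh6) and at Cyfip2, and higher at 1, Cdh15. These calls were thus not particular to the 8 members. None of 6 housekeeping genes (Actb, Gapdh, Hprt, Tbp, Ppia and Rpl13a) had a start-site peak in both libraries of any group. By percent covered, only 1 of the 6, Hprt, had any peak in its window in the libraries compared. Its H3R2C values lay below both H3WT libraries and below both H3R26C libraries, the same calls as at Pcdh8 and Pcdh10.

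The genes whose H3K27me3 pattern was most like that of a member were taken as the 2 with the smallest root mean square difference in log2 (scaled window signal + 0.25) over the 9 libraries. For Pcdh8 these were Nkx2-2, a homeobox gene of the ventral neural tube, with a difference of 0.23, and Cldn34b3 with 0.24. For Pcdh10 they were Fat3, an atypical cadherin, with 0.37, and Defb26 with 0.40. Pcdh1 was nearest to Htatip2 and Zfp617, both 0.23. Pcdh20 was nearest to Pdzph1 (0.53) and Mctp1 (0.57), and Pcdh9 to Car2 (0.55) and Dmac1 (0.56). The other 3 members had signal in fewer than 5 libraries and were not matched. These likenesses were picked from all genes over 9 libraries that share scaling and are a description only.

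Where the transgenic histone itself lay was read from the HA lists, which played no part in choosing the members. Pcdh1, Pcdh7, Pcdh10 and Pcdh18 had no HA peak in their window in any of the 10 HA libraries, and the other 4 members passed the filter of HA signal in at least 2 libraries. The only HA peak over a start site was at Pcdh8 in the first H3WT library. HA peaks covered 46.0% and 9.94% of the Pcdh8 window in H3WT, 0% and 3.82% in H3R2C, 0% in both H3R8C libraries, 0.620% and 0% in H3R17C, and 2.13% and 1.80% in H3R26C. All 8 mutant values lay below both H3WT values.

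The 2 H3WT libraries were themselves unlike each other, with 15344 HA peaks of median width 10.7 kb in the first and 37907 of 2.65 kb in the second. The 8 mutant HA lists held 46398 to 52083 peaks of median width 0.8 to 1.6 kb, so the low mutant values at Pcdh8 moved together with narrower peaks throughout the list. The part of peak width in the Pcdh8 values was not tested.

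The scaled HA signal was compared over 15858 gene windows with limma, each mutant against H3WT, with Benjamini-Hochberg adjustment over all windows. In H3R2C 12.9% of windows passed an adjusted p of 0.05, with 340 lower and 1700 higher, and 1 of the 4 members tested, Pcdh9, was among them. No window passed in H3R8C (0%), H3R17C (0%) or H3R26C (0%), where limma gave an unadjusted p under 0.05 for 1343, 1815 and 1949 windows. The H3R2C count rested on the H3WT libraries, as it was 0 without the first and 286 without the second. It was 639 without the first H3R2C library and 1004 to 1042 without any 1 library of H3R8C or H3R26C. On signal as deposited, without scaling, the H3R2C count became 2248 lower and 728 higher. The counts of 0 also depended on the settings, since on signal as deposited limma called 41 windows in H3R8C, 1719 in H3R17C (1473 of them lower) and 108 in H3R26C. Over only the 5624 windows with signal in every library it called 31, 133 and 422, and without a filter 10, 77 and 28.

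Pcdh9 had scaled HA signals of 0 and 0.0872 in H3WT, 1.19 and 0.510 in H3R2C, 0 in all 4 libraries of H3R8C and H3R26C, and 0 and 0.324 in H3R17C. Both H3R2C libraries were above all the others. The increase over H3WT was 1.85 ± 0.47 (SE) on the log2 (signal + 0.25) scale, with an adjusted p of 0.0311 by limma. The signal came from 6 and 4 small peaks that together covered 4.55 kb and 6.15 kb of a 917 kb window, none of them over the start. These peaks were close to the limit of detection. Each had 0.166 to 0.222 in the first H3R2C library, whose weakest peak had 0.166, and 0.110 to 0.156 in the second, whose weakest had 0.108. The weakest HA peak had 0.221 in the first H3WT list and 0.078 in the second. The part of these limits in the Pcdh9 call was not tested. The adjusted p by limma ranged from 0.000134 to 0.381 over the alternatives, and the call ended without the first H3WT library (0.183), without the second (0.0867) and without the first H3R2C library (0.117). It also ended without any 1 library of H3R8C or H3R26C, with adjusted p of 0.0573 to 0.0599 by limma. A pseudocount of 0.05 (0.0744), no filter (0.103), the gene body alone (0.0726) and signal as deposited (0.381) ended it as well, and Pcdh9 was not tested where signal in every library was required. The alternatives behind this range include all 3 labelled replicates, a setting that counts identical lists more than once.

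At Pcdh8, scaled HA signals were 0.583 and 0.136 in H3WT, 0 and 0.134 in H3R2C, 0 in both H3R8C libraries, 0.05 and 0 in H3R17C, and 0.0977 and 0.0873 in H3R26C. The log2 difference from H3WT was -0.87 ± 0.39 (SE) in H3R2C, with an adjusted p of 0.168 by limma. It was -1.18 in H3R8C (adjusted p = 0.490 by limma), -1.05 in H3R17C (0.349) and -0.73 in H3R26C (0.514). None passed, and H3R8C, which had no HA peak in this window, had the broadest H3K27me3 coverage of it. Pcdh17 had HA signal in 6 of 10 libraries, at most 0.363, and Pcdh20 in 2 of 10, at most 0.228, and neither passed in any mutant.

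**Figure D4:**
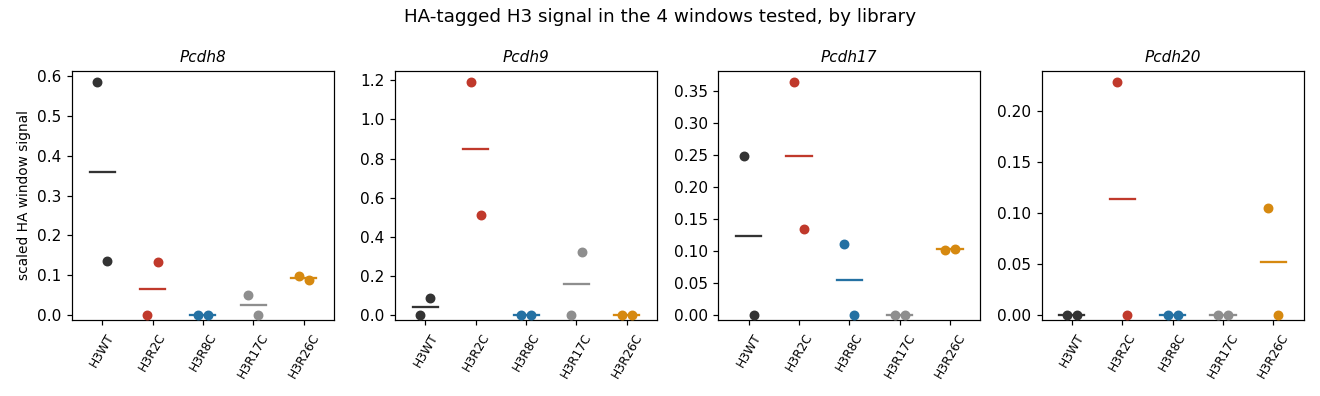
Scaled HA signal (y axis, no unit, a separate scale for each gene) in the windows of the 4 members tested, in the 5 groups (x axis). Points are independent libraries and lines are group means. At Pcdh9 the 2 H3R2C libraries, 1.19 and 0.510, are the highest, and at Pcdh8 the first H3WT library stands apart at 0.583.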

How the data were processed

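CUT&RUN for H3K27me3 and for HA-tagged H3 was read from peak lists of 30 of the 60 samples. The authors mapped single-end reads with Rsubread and called peaks with SEACR (stringent, normalised, 0.01), and the deposited files give the total and maximum signal of each peak, a coverage summed over its bases or at its highest point, without scaling between libraries. Since such a cut-off takes the strongest blocks of each library, whether a weak peak is listed depends on the list. The other samples were not analysed here.

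Groups came from sample titles. Gene models were GENCODE M21 (protein-coding). Total signal was shared out by the bases inside a window and divided by the library median over 5401 consensus regions (H3K27me3) or 5624 windows with signal in every library (HA). limma 3.58.1 (R 4.3.3; lmFit, eBayes with trend) was fitted to log2 (scaled HA signal + 0.25) over windows with signal in at least 2 libraries, with the 5 groups sharing 1 estimate of the spread, after the code was checked on simulated data. The labels call the lists replicates, and p-values measure the spread between these libraries. Tables were made with Python 3 and pandas.

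The members and gene lists were chosen with earlier results of these data known. All members are named, as are list genes whose start-site peak was lost or gained and the 2 genes most alike in pattern. Alternatives covered peak thresholds, windows, start sites, scaling, pseudocounts, filters and left-out libraries. A common scaled floor and the segments around the start were added after seeing the data.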

Additional observations from a re-analysis of the deposited data

Results flagged for a closer look

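At 2 members, the H3R2C libraries lay wholly below and the H3R8C libraries wholly above both H3WT libraries in the percent of the window covered by H3K27me3 peaks. At Pcdh8 the mean fell by 40.2 percentage points in H3R2C and was 9.32 points higher in H3R8C. At Pcdh10 it fell by 2.42 points in H3R2C, to 0, and was 8.97 points higher in H3R8C. The pattern did not hold at either member under every alternative. Pcdh8 was no longer higher in H3R8C with the upper 50% of peaks, with the common scaled floor or by scaled signal, and Pcdh10 was no longer lower in H3R2C with the common floor, with equal peak numbers in every list or with the upper 50% of peaks. Taken singly, 20.2% of all covered windows were lower in H3R2C and 22.8% were higher in H3R8C. The share of windows with both was not computed. Cyfip2, of the WAVE complex list, was also lower in H3R2C and higher in H3R8C, so the pattern was not particular to these members. Both contrasts use the same 2 H3WT libraries, and the difference between H3R2C and H3R8C was not tested.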

How the results depend on the processing

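Each value was recomputed under the alternatives. The 18 counts of members in H3K27me3 comparisons and the 4 in HA comparisons stayed within 1.5 times of the reported value in 240 recomputations and moved in 46. For H3R2C, with the upper 50% of peaks, with equal numbers of top peaks and with the common scaled floor (added after seeing the data), 1 member (Pcdh8) in place of 2 lost its start-site peak and was lower in percent covered. Under the same settings, in that order, 4, 6 and 5 members in place of 6 were higher in percent covered in H3R8C. Reading the gene body alone, 0 were higher in H3R2C, 1 was lower and 1 higher in H3R26C, and with 50 kb on each side 2 were higher in H3R2C and 1 lower in H3R26C. For start-site gains, the upper 50% of peaks gave 3 in H3R8C and 2 in H3R26C, and peaks over at least 50% of the start window gave 2 and 1. With maximum signal, 0 members were higher in H3R2C, 3 were lower and 0 higher in H3R26C, and with signal as deposited 1 was higher in H3R26C. Leaving out single libraries, members lower in H3R2C ranged from 2 to 4 by percent covered and by scaled signal (4 without the second H3WT library) and members higher from 1 to 2 (2 without the second H3R2C library). Gains ranged from 1 to 3 in H3R8C and from 0 to 2 in H3R26C (the highest without the first H3WT library), and members lower in H3R26C from 0 to 2 by percent covered and from 1 to 2 by scaled signal. The cause was not tested.

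For HA in H3R2C, 0 members passed with a pseudocount of 0.05, signal as deposited, no filter, signal in every library or the gene body alone, 3 with all 3 labelled replicates and 0 to 2 without single libraries. In H3R8C, H3R17C and H3R26C, 1 (Pcdh8) passed with all 3 labelled replicates, which counts identical lists more than once. Some directions reversed. The Pcdh1 difference of H3R2C from H3WT became -4.21 percentage points over the gene body alone and -2 in maximum signal, the latter difference for H3R26C became -3, and the Pcdh9 difference of H3R8C from H3WT became -0.396 points over the gene body alone.

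The replicate numbers did not pair the libraries (correlations of -0.0419 to 0.126 over 10 pairs of groups), and with the replicate block limma called 2023 windows and 1 member in H3R2C, with no member call changed. H3R17C had 1 H3K27me3 library and no spread. For a gene with no listed peak, the weakest peak of its list is the detection limit used here.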
